A study of Mus musculus with 17 samples.

Results

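Astrocyte genes were read in RNA bound to tagged ribosomes from the mediobasal hypothalamus of newborn and weanling mice. The 38 genes were taken by name from the deposited table, and each of the 38 was among its 15355 genes. In POMC RiboTag mice a haemagglutinin (HA) tag sits on a ribosomal protein in cells where the Pomc gene is or once was active, and an HA antibody pulls the tagged ribosomes out of the homogenate with their mRNA. The dams were POMC RiboTag females put on standard chow or on a diet with 45% fat (HFD) at 6 weeks of age, mated after 4 weeks and kept on the same diet until the litter was weaned at postnatal day 21. The 4 groups of offspring were chow P0 (day of birth, 5 libraries), HFD P0 (5 libraries), chow P21 (3 libraries) and HFD P21 (4 libraries), 17 in all. The labels number them as biological replicates but give neither sex, litter nor pooling, so each p-value measures the spread between these libraries.

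Astrocytes are the glial cells that take up transmitter at synapses, buffer potassium and water, couple to each other through gap junctions, and supply neurons with lipid particles, lactate and glutamine. In rodents they multiply and mature over the first weeks after birth, while the radial glia that precede them disappear. In the arcuate nucleus their processes wrap POMC neurons, and they take part in sensing of nutrients and leptin. The 38 genes were grouped by the role of their products: transmitter uptake and recycling (5), water, ion and junction proteins (8), secreted proteins and lipid carriers (8), metabolic enzymes (6), metallothioneins (3), transcriptional regulators (3), receptors (3), and filament and calcium-binding proteins (2).

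The labels call the material POMC neurons, and Pomc was present in every library, from 90.7 to 12070 normalized units. Units are CPM-like (scaled reads): the columns sum to between 907950 and 1104908 units. Transcripts of the 38 genes stood in the same libraries at widely differing levels, and which cells they came from was not tested. Per kilobase of exon, Cst3 (cystatin C, a secreted protease inhibitor) led the 38 genes in chow P21 at 1892 ± 189 units per kb (mean ± SD, n = 3), followed by Apoe at 1404 ± 249. Mt1 (428 ± 17.4) and Sparcl1 (418 ± 118) came next and did not differ beyond their spread. Aldoc (383 ± 138) and Clu (328 ± 43.5) followed. Common astrocyte markers thus differed widely, as Gfap was at 76.4 ± 33.4, Aqp4 at 19.2 ± 8.29 and Aldh1l1 at 8.64 ± 3.70. Cbs (3.23 ± 1.11) and Dio2 (1.196 ± 0.56) were at the bottom of the order. Cst3 and Apoe were also first and second in the other 3 groups, and Cbs and Dio2 last. In such pulled-down material, fewer cells of a type, less RNA per cell and less RNA carried over from untagged cells cannot be told apart. No library of the input tissue was analysed here, so how far the pull-down depleted glial RNA was not tested.

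At P21, astrocyte genes were lower in HFD than in chow offspring across most roles, and 4 of the 38 passed the test. Apoe, the main lipid carrier of the brain, Agt (angiotensinogen, the precursor of angiotensin, made in brain by astrocytes), Gjb6 (connexin 30, a gap junction protein) and Ttyh1 (a membrane protein of the tweety family) fell, and none of the 38 rose. The test was limma on log2(value + 1), with Benjamini-Hochberg adjustment over all 14070 genes tested and a threshold of 0.05. Of all genes tested, 0.0782% were called lower and 0.0995% higher. The median log2 difference of the 38 genes was -0.86, beside -0.02 for all genes, and 36 of 38 lay below 0, beside 52.1% of all genes. In 22 of the 38 every HFD library was below every chow library, which held for 7.78% of all genes. An unadjusted p under 0.05 was found for 34 of the 38 (2393 of 14070 overall), all of them lower. The 38 genes and the lists below were chosen with earlier results of these data known. Setting them beside all genes is therefore no independent check.

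**Figure D1:**
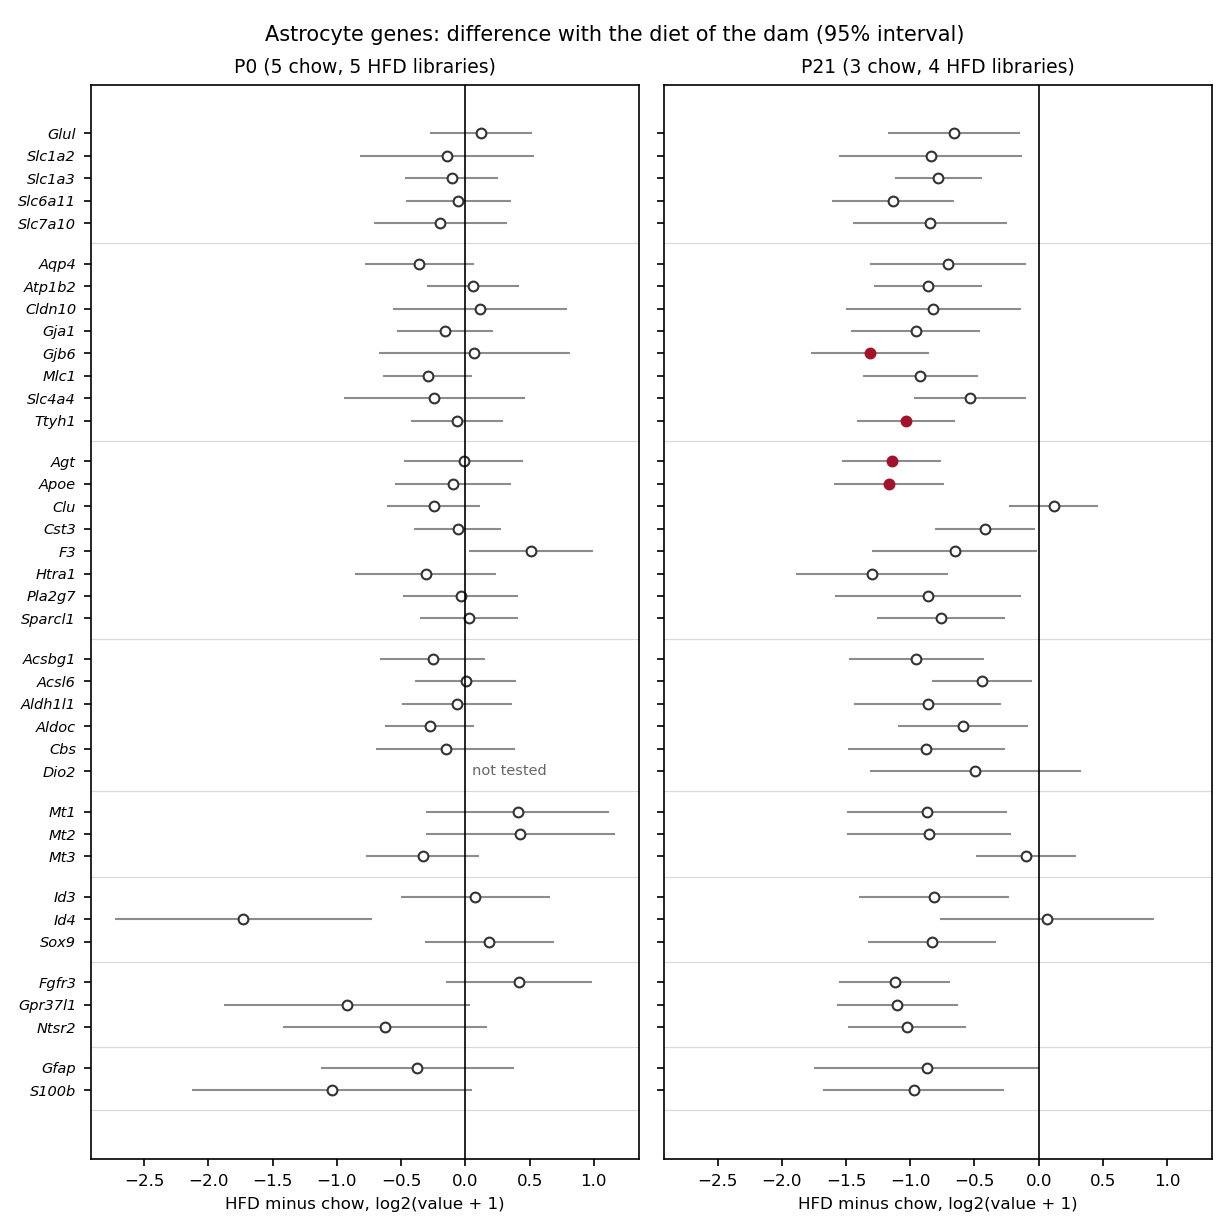
Log2 difference (HFD minus chow, of value + 1) of each astrocyte gene with its 95% interval, at P0 on the left and P21 on the right, with role groups set apart by lines. Filled red points passed the test (Agt, Apoe, Gjb6 and Ttyh1, all at P21). At P21 the points lie left of 0 except for Clu and Id4, while at P0 they scatter around 0 and Id4 lies farthest to the left.

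Promoter sequences are shown for 3 of the 4 genes that fell, Agt, Apoe and Gjb6, which were picked because they passed the test at P21. Each is the 250 bases before the RefSeq transcription start (GRCm38.p6, the mm10 assembly), on the strand of the gene, 5′ to 3′. Capitals mark matches to 3 motifs that were searched on both strands: the palindrome TTCNNNGAA bound by STAT factors, TTGGCA bound by NFI factors, and ACAAAG bound by SOX factors. None of the motifs overlap in these windows.
Agt, chr8:124569707-124569956, minus strand: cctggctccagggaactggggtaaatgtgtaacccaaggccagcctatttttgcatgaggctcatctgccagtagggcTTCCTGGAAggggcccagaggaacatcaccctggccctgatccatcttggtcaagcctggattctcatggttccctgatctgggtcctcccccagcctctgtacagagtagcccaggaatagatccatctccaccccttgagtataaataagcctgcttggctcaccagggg
Apoe, chr7:19699189-19699438, minus strand: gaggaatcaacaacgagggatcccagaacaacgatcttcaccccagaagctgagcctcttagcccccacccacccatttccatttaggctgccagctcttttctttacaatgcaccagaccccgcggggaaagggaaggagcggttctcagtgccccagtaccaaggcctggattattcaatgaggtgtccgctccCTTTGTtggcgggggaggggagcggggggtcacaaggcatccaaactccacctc
Gjb6, chr14:57133612-57133861, minus strand: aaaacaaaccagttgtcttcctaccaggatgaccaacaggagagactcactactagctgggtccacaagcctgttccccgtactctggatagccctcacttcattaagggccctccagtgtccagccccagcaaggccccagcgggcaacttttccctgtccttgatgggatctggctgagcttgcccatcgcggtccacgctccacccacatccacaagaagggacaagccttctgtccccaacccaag
The Agt window held the STAT palindrome at positions -172 to -164 from the start, and the Apoe window held the SOX motif on its opposite strand at -54 to -49. The Gjb6 window held none of the 3 letter patterns, so the printed windows share none of them. RefSeq gives Apoe 2 further starts inside the gene, and the 250 bases before them held the NFI motif once (19698399 to 19698648) and no match (19698622 to 19698871). The window of Ttyh1, the fourth gene that fell, overlaps its annotated gene, is not printed and held no match. Over the 33 astrocyte genes found in the RefSeq promoter table used here (41 windows), the STAT palindrome was in 6 windows (14.6%, beside 7.02% of 32851 promoters of the same length), the NFI motif in 4 (9.76%, beside 12.3%) and the SOX motif in 5 (12.2%, beside 16.5%). These are matches of letters, and no binding was measured.

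Agt lies on chromosome 8 (124556534 to 124569706, minus strand, 5 exonic blocks in GENCODE M21). It stood at 421, 451 and 468 units in chow P21 replicates 1 to 3 and at 179, 195, 282 and 166 in HFD P21 replicates 1 to 4, so that the highest HFD library was well under the lowest chow library. The log2 difference was -1.15 (SE 0.17, 95% interval -1.52 to -0.77, adjusted p = 0.0277). The chow libraries were close together for this gene (SD 23.8 around 447).

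Apoe (chromosome 7, 19696109 to 19699188, minus strand) was at 2560, 2851 and 3593 units in the chow libraries. The HFD libraries were at 1203, 1625, 1597 and 989, again without overlap. The difference was -1.16 (SE 0.19, 95% interval -1.58 to -0.74, adjusted p = 0.0412). None of its exonic bases is shared with another annotated gene.

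Gjb6 (chromosome 14, 57123303 to 57133611, minus strand) gave 116, 126 and 162 units under chow. Under HFD it gave 46.0, 47.5, 77.0 and 46.9, and the third library stood apart from the other 3. The difference was -1.31 (SE 0.21, adjusted p = 0.0328). Its partner connexin Gja1 (connexin 43) was at 208, 319 and 388 under chow and 122, 164, 205 and 127 under HFD, so these groups only just failed to meet. Gja1 did not pass, at -0.96 (SE 0.23, adjusted p = 0.0971).

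Ttyh1 (chromosome 7, 4119408 to 4136708, plus strand) was at 342, 404 and 507 units under chow and at 193, 255, 175 and 188 under HFD. The difference was -1.04 (SE 0.17, 95% interval -1.41 to -0.66, adjusted p = 0.0412). Of its exonic bases, 6.65% lie under transcripts of the opposite strand, and the sources do not give the strand setting of the counting.

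The other water, ion and junction genes were lower without passing: Mlc1, a membrane protein of perivascular endfeet whose loss in people causes a leukodystrophy, was at 133, 179 and 246 under chow and 80.6, 104, 110 and 88.3 under HFD (-0.92, SE 0.20, adjusted p = 0.0796). Atp1b2, a sodium pump subunit that also acts in adhesion, was at -0.86, the water channel Aqp4 at -0.70, the claudin Cldn10 at -0.82 and the bicarbonate transporter Slc4a4 at -0.54. In this group all 8 genes lay below 0 and had an unadjusted p under 0.05, and 2 fell.

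None of the 5 transmitter uptake and recycling genes passed, although the 5 were lower with an unadjusted p under 0.05. Slc6a11, the GABA transporter GAT3, was the lowest of them by p: 311, 393 and 472 under chow and 125, 237, 159 and 201 under HFD (-1.13, SE 0.21, adjusted p = 0.0649). The groups did not overlap. The glutamate transporters Slc1a3 (GLAST) and Slc1a2 (GLT-1) were at -0.78 and -0.84, the serine and glycine exchanger Slc7a10 at -0.84 and glutamine synthetase, Glul, at -0.66. For Slc1a2 the HFD libraries ran from 112 to 376 and overlapped the chow range of 359 to 537.

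The 3 receptors had the lowest median of the role groups (-1.10), and none passed. Fgfr3, a fibroblast growth factor receptor of the astrocyte lineage, was at 80.4, 96.9 and 107 under chow and 41.1, 53.3, 32.2 and 47.3 under HFD. It missed the threshold narrowly (-1.12, SE 0.19, adjusted p = 0.0501). Gpr37l1, an orphan receptor of astrocytes, was at 203, 257 and 400 under chow and 114, 159, 128 and 115 under HFD (-1.10, SE 0.21, adjusted p = 0.0649). Ntsr2, a neurotensin receptor, was at -1.02. Each of the 3 had every HFD library below every chow library and an unadjusted p under 0.05.

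Among the 6 metabolic enzymes 0 passed and 5 had an unadjusted p under 0.05, the exception being Dio2. Acsbg1, an acyl-CoA synthetase, was at 100.03, 129 and 198 under chow and 61.5, 75.4, 93.4 and 56.0 under HFD (-0.95, SE 0.24, adjusted p = 0.103). Cbs, which makes cystathionine from homocysteine, was at -0.87, the folate enzyme Aldh1l1 at -0.87, aldolase C (Aldoc) at -0.59, Acsl6 at -0.44 and Dio2, which activates thyroid hormone, at -0.49. Dio2 was low throughout, with 4.90 to 10.7 units under chow and 3.27 to 8.21 under HFD.

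S100b, a calcium-binding protein, was at 99.8, 129 and 161 under chow and 62.1, 87.1, 97.7 and 32.3 under HFD (-0.97, SE 0.32, adjusted p = 0.171). Gfap, the intermediate filament of astrocytes, was at -0.87 with wide spread (SE 0.40, adjusted p = 0.291), as its libraries ran from 192 to 471 under chow and from 86.2 to 321 under HFD. Sox9, a transcription factor of the glial lineage, was at 36.1, 42.1 and 42.6 under chow and 28.1, 22.3, 24.7 and 15.5 under HFD (-0.83, SE 0.22, adjusted p = 0.116). Id3, an inhibitor of helix-loop-helix factors, was at -0.81. The remaining secreted and surface proteins were lower too without passing: the protease Htra1 at -1.30, the lipase Pla2g7 at -0.86, the matrix protein Sparcl1 at -0.76, tissue factor (F3) at -0.65 and Cst3 at -0.42.

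Clu, Id4 and Mt3 did not share the difference, and they are named here because of their values. Clusterin (Clu), a secreted chaperone and lipoprotein partner, was at 987, 1111 and 1285 under chow and 1275, 1075, 1490 and 1073 under HFD, with groups that overlap (0.12, 95% interval -0.22 to 0.45, adjusted p = 0.741). In each library Clu and Apoe can be set against each other. The ratio of Clu to Apoe was 0.358 to 0.390 in the 3 chow P21 libraries and 0.662 to 1.08 in the 4 HFD P21 libraries, which do not overlap. At P0 the ratio was 0.130 to 0.262 under chow and 0.132 to 0.286 under HFD.

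The metallothioneins, small zinc-binding proteins, also parted. Mt1 was at 559, 521 and 522 under chow and 349, 342, 413 and 146 under HFD (-0.87, SE 0.28, adjusted p = 0.168), and Mt2 was at -0.85. Mt3, the brain form, was at 306, 285 and 391 under chow and 321, 310, 371 and 229 under HFD (-0.10, 95% interval -0.48 to 0.29). The ratio of Mt3 to Mt1 was 0.547 to 0.749 in chow P21 and 0.898 to 1.56 in HFD P21. At P0 it went the other way, with overlap: 0.844 to 1.32 under chow and 0.438 to 0.945 under HFD. Mt1 and Mt2 are similar in sequence and reads may be split between them, and 73.5% of the exonic bases of Mt2 lie under an antisense transcript, so their separate values are uncertain. Both ratios were picked after their values were seen and have no test.

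**Figure D2:**
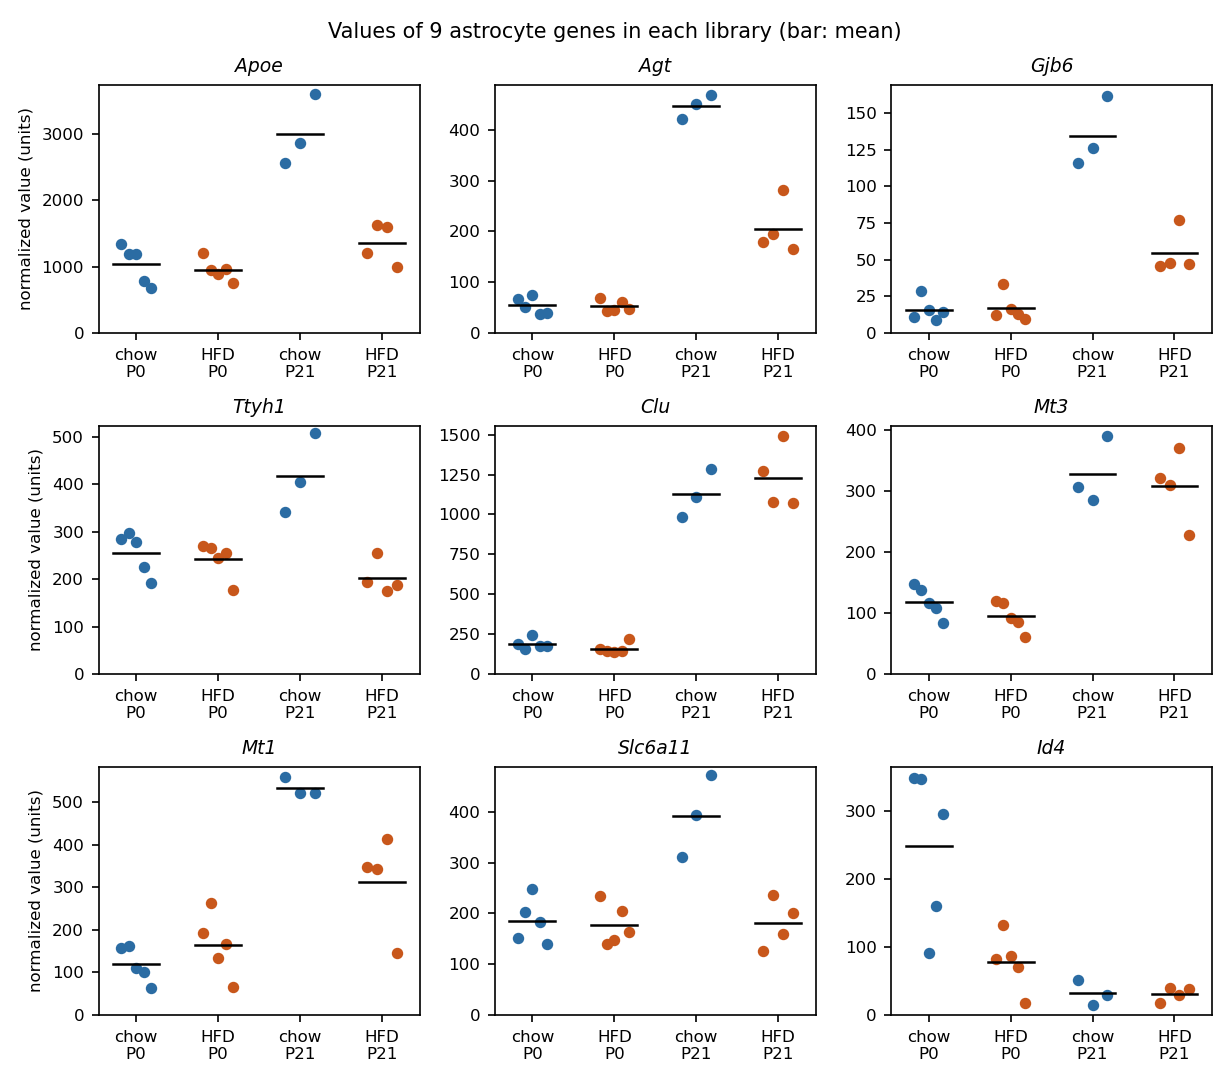
Normalized value (units, linear axis from 0) of 9 astrocyte genes in each of the 17 libraries, chow in blue and HFD in orange, with the group mean as a bar. For Apoe, Agt, Gjb6 and Ttyh1 the 4 HFD P21 libraries sit below the 3 chow P21 libraries, whereas for Clu and Mt3 they overlap.

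The number of astrocyte genes past the threshold at P21 rested on single libraries, while the direction did not. Leaving out chow P21 replicate 2 or 3, or HFD P21 replicate 1 or 4, left 0 of the 38 past it. Over all genes those fits called 0, 3, 0 and 0 lower, beside 11 of 14070 with all libraries. Leaving out HFD P21 replicate 3 left 2, Agt and Gjb6 (6 of all 13945 genes were called lower). Without HFD P21 replicate 2 there were 4 (Apoe, Fgfr3, Slc6a11 and Ttyh1), and without chow P21 replicate 1 there were 9: Agt, Apoe, Fgfr3, Gja1, Gjb6, Gpr37l1, Mlc1, Slc6a11 and Ttyh1. There, 14 of 13927 and 37 of 14324 genes were called lower, so the count moved over the whole table as well. In these 7 fits 35 to 37 of the 38 genes lay below 0 and the median ran from -0.99 to -0.66. Chow P21 replicate 3 was the highest P21 library for 33 of the 38 genes and also had the highest Pomc of the P21 libraries, 12070 units. Chow P21 replicates 1 and 2 had Pomc at 4679 and 3878, below the 7460 to 9818 of the HFD P21 libraries. HFD P21 replicate 4 was the lowest for 20 of the 38.

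Other astrocyte genes were read from a list of 27, of which 26 were in the table. Hepacam, an adhesion protein of astrocyte junctions, fell: 77.3, 98.3 and 136 under chow and 32.4, 45.0, 35.7 and 42.9 under HFD (-1.36, SE 0.21, adjusted p = 0.0277). It was the 1 of 26 that passed, and leaving out 5 of the 7 libraries 1 at a time ended that call, with an adjusted p of 0.0344 to 0.113 over the 7 fits. The list had a median of -0.81, and 25 of 26 lay below 0 (52.1% of all genes did). It was chosen with earlier results of these data known. The endothelin receptor Ednrb (-1.28, adjusted p = 0.0502) and the proteoglycan Bcan (-1.09, adjusted p = 0.0727) were next by p.

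Of 14 genes known from reactive astrocytes, 12 were in the table and 10 could be tested, of which 7 lay above 0 (47.9% of all genes did), 3 lay below and 2 rose: Timp1, a metalloprotease inhibitor, and Serpina3n, a serine protease inhibitor. Timp1 was at 0.92, 2.09 and 1.65 units under chow and 12.4, 16.3, 9.67 and 8.15 under HFD (2.29, SE 0.32, adjusted p = 0.0199). Serpina3n was at 152, 147 and 70.5 under chow and 310, 277, 413 and 378 under HFD (1.54, SE 0.25, adjusted p = 0.0388). Both groups of values stood clear of each other. Neither gene belongs to astrocytes alone. Socs3, a feedback inhibitor of cytokine signalling, was at 1.58 (adjusted p = 0.0649) without passing. Stat3, the factor that Socs3 restrains, was at 0.99 and the adhesion receptor Cd44 at 1.13, and both are named because of their values. Cp (ceruloplasmin, a copper-carrying ferroxidase) was among the 3 below 0, at 7.44, 10.8 and 7.86 units under chow and 5.54, 4.13, 8.99 and 4.22 under HFD (-0.57, SE 0.32, adjusted p = 0.385), and Aspg was at -0.76. The median of the 10 was 0.56, and this list too was chosen with earlier results of these data known. Lcn2 and Osmr were too low to test. Gfap, lower under HFD without passing, is counted above with the filament genes and is not in this list. With a library left out, the call of Timp1 remained in 5 of 7 fits (adjusted p of 0.0470 to 0.0739) and that of Serpina3n in 3 of 7 (0.0388 to 0.104). Without chow P21 replicate 2, or without HFD P21 replicate 1, 0 genes of the list passed.

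Genes that work with the astrocyte proteins in pathways gave 0 calls at P21. Of all genes tested, 0.0782% were called lower and 0.0995% higher, so 0 calls in lists this short says little. For the 14 genes of the glutamate and glutamine cycle the median was -0.0006 and 5 had an unadjusted p under 0.05 (2393 of 14070 overall). Among them, Gad1, which makes GABA in neurons, was at 0.69 (adjusted p = 0.0742) and the vesicular glutamate transporter Slc17a7 at -2.90 (adjusted p = 0.0996). The 8 genes of the dystrophin complex at endfeet had a median of -0.21, with 1 at an unadjusted p under 0.05. They were led by Dag1 (-0.37, adjusted p = 0.282), Sntb1 (-0.81) and Dtna (0.21). The 13 genes of cholesterol export and lipoproteins had a median of -0.19, with 4 at an unadjusted p under 0.05, and among them Pltp, a phospholipid transfer protein, was at -0.997 (adjusted p = 0.147) and the cholesterol exporter Abca1 at -0.74.

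Markers of other cells moved in the same comparison. Oligodendrocyte genes had a median of -1.09, with 14 of 14 below 0 (52.1% of all genes were). Their summed level was 8394 to 18734 units in chow P21 and 4086 to 7508 in HFD P21. Microglia genes had a median of -0.84 (14 of 14 below 0, sums of 429 to 760 and 268 to 397), and endothelial and mural genes -0.74 (16 of 18 below 0, sums of 273 to 382 and 151 to 272). None of these genes passed (0.0782% of all genes were called lower), and 13, 10 and 9 of them had an unadjusted p under 0.05 (2393 of 14070 overall). The summed level of the 38 astrocyte genes was 13168 to 18742 units in chow P21 and 7382 to 11754 in HFD P21. Neuronal genes were at a median of -0.13 (sums of 8632 to 10565 and 8639 to 10518). POMC neuron genes were at 0.53 (8431 to 16624 and 12933 to 15514), and among them Cartpt, the gene of the CART peptide, rose. Defining markers went as follows: Mbp -1.35, Csf1r -0.89, Cx3cr1 -0.42, Cldn5 -1.04, Pecam1 -0.58, Rax -0.31, Ttr 0.42, Snap25 -0.15, Rbfox3 -0.20 and Pomc 0.49. The median was -0.31 for genes of radial glia and tanycytes and -0.51 for those of choroid plexus and ependyma, and in the last list Folr1, Kcnj13 and Aqp1 were listed at 0 in 1, 1 and 2 HFD P21 libraries. The part of these shifts in the astrocyte difference was not tested.

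**Figure D3:**
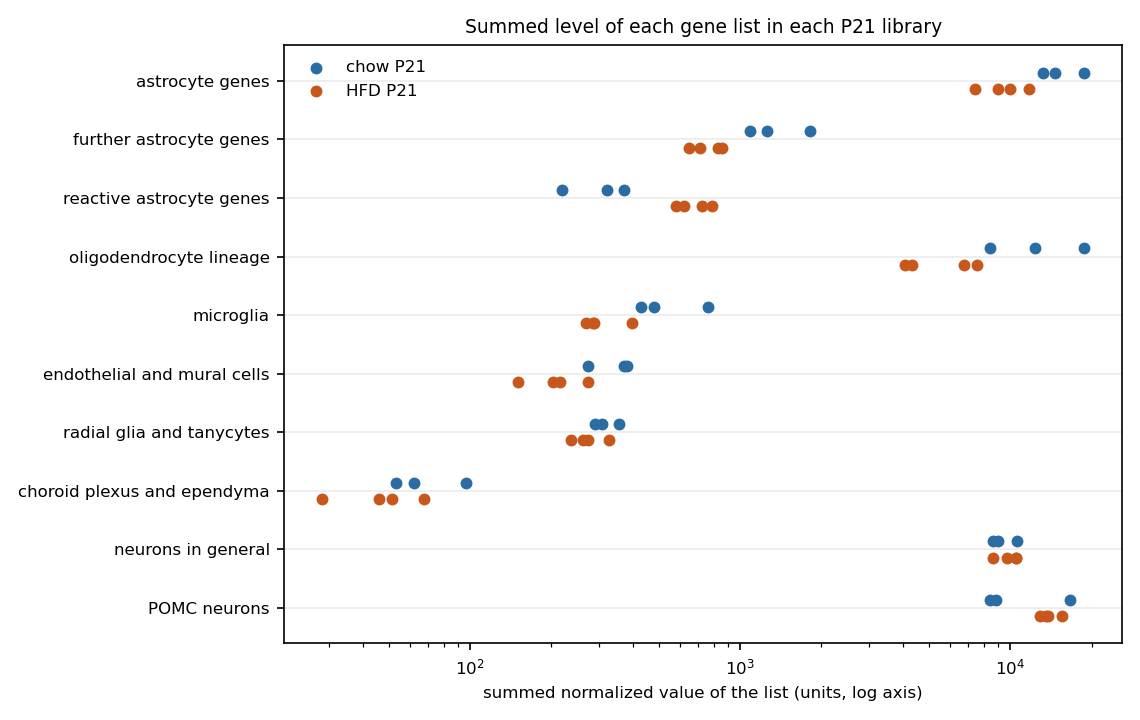
Summed normalized value (units, log axis) of each gene list in each P21 library, chow in blue and HFD in orange. The 4 HFD libraries lie below the 3 chow libraries without overlap in the astrocyte, further astrocyte, oligodendrocyte and microglia lists. The endothelial and mural list is lower without overlap too, by a narrow gap. The reactive astrocyte list is higher, and neuronal sums overlap.

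At P0 no astrocyte gene passed in either direction. Of 37 genes tested (Dio2 was too low), 0 were called by limma and 2 had an unadjusted p under 0.05, Id4 and F3. Of all 14086 genes, 0.291% were called. The median of the 37 was -0.10, with 25 below 0 (50.4% of all genes lay below 0). An edgeR quasi-likelihood test on the reads recovered from 3 chow and 2 HFD libraries also gave 0, with a median of 0.15.

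Id4, an inhibitor of differentiation that is high in glial progenitors, had the largest difference at P0. It was at 349, 347, 91.6, 160 and 295 units in chow P0 replicates 1 to 5 and at 82.9, 133, 86.8, 70.1 and 18.1 in HFD P0 replicates 1 to 5. Chow replicate 3 lay inside the HFD range. The difference was -1.73 (SE 0.47, 95% interval -2.72 to -0.73, adjusted p = 0.186). F3 was at 7.21 to 12.1 under chow and 11.9 to 18.8 under HFD (0.51, SE 0.22, adjusted p = 0.484).

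The 4 genes that fell at P21 did not pass at birth. Agt was at 66.8, 51.8, 75.4, 38.3 and 40.3 under chow and 69.1, 42.8, 44.5, 61.4 and 47.5 under HFD (-0.01, 95% interval -0.47 to 0.44). Apoe was at 1343, 1185, 1194, 789 and 677 under chow and 1197, 941, 880.5, 969 and 759 under HFD (-0.10, 95% interval -0.54 to 0.35). Both intervals leave out the difference measured at P21, -1.15 for Agt and -1.16 for Apoe. That is no test of a difference between ages, and none of the 38 genes passed the interaction test given below. Gjb6 ran from 8.65 to 28.7 under chow and from 9.36 to 33.5 under HFD (0.07, 95% interval -0.67 to 0.81), and Ttyh1 from 191 to 297 and from 178 to 271 (-0.07, 95% interval -0.42 to 0.29). In P0 libraries with much Pomc the astrocyte genes were low: chow replicates 4 and 5 and HFD replicate 5 had Pomc at 891, 1308 and 1057 units and a median deviation of the 38 genes from the P0 mean of -0.25, -0.22 and -0.29 on the log2 scale. Among the other 7 P0 libraries, with Pomc at 90.7 to 657, the deviation was -0.21 in HFD replicate 3 and 0.04 to 0.30 in the rest.

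From birth to weaning most astrocyte genes rose under both diets. In chow offspring 33 of 38 rose and 1 fell, beside 18.3% and 17.7% of 14549 genes tested. In HFD offspring 27 rose and 4 fell, beside 24.7% and 26.2% of 14245 genes. The median log2 change was 1.55 under chow and 0.89 under HFD (all genes -0.01 and -0.05). The same 27 genes rose in both diets. These comparisons and the diet comparison at P21 share libraries, so their values are given side by side.

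The largest rises were in receptors and in S100b. Ntsr2 rose from 8.29 to 33.1 units over the chow P0 libraries to 284, 296 and 463 at P21 (4.59, SE 0.37, adjusted p = 2.35e-06), and from 5.04 to 14.7 under HFD at P0 to 128, 199, 201 and 150 (4.19, SE 0.27, adjusted p = 6.71e-08). Gpr37l1 rose by 4.37 under chow and 4.19 under HFD. S100b rose from 1.84 to 15.5 units at P0 to 99.8 to 161 under chow (3.88, SE 0.49), and from 1.32 to 8.44 to 32.3 to 97.7 under HFD (3.95, SE 0.42). The difference between the diets in this change was -0.40 (SE 0.49) for Ntsr2, -0.18 (SE 0.59) for Gpr37l1 and 0.06 (SE 0.71) for S100b, without passing.

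Clu rose by 2.58 (SE 0.17) under chow and 2.95 (SE 0.17) under HFD, and Mt3 by 1.47 and 1.70. Aldoc rose by 2.64 under chow (151 to 249 units at P0, 928, 1058 and 1763 at P21) and by 2.33 under HFD (139 to 189, then 735, 787, 1091 and 639). Slc1a2, the main glutamate transporter of the mature brain, rose by 2.74 (SE 0.32) and 2.04 (SE 0.32), from 36.3 to 104 units over chow P0 and 29.6 to 78.9 over HFD P0. Its relative Slc1a3, which is already high in radial glia, was not called under either diet (0.39 and -0.28). The ratio of Slc1a2 to Slc1a3 went from 0.165 to 0.359 in chow P0 libraries to 1.18 to 1.498 in chow P21 libraries, and from 0.137 to 0.346 to 0.712 to 1.76 under HFD.

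Agt rose by 3.06 (SE 0.21) under chow and 1.93 (SE 0.20) under HFD, Gjb6 by 3.12 (SE 0.30) and 1.74 (SE 0.31), and Mt1 by 2.24 (SE 0.26) and 0.96 (SE 0.36). Apoe rose by 1.57 (SE 0.25) and 0.50 (SE 0.19), the second with an adjusted p of 0.0417. With a library left out, the HFD calls of Apoe and Mt1 each remained in 3 of 9 fits, with adjusted p up to 0.134 and 0.121. Those of Mlc1 and Slc4a4 each remained in 2 of 9 (adjusted p up to 0.111 and 0.1165), and that of Cldn10 in 7 of 9. Gfap rose by 2.98 and 2.48. Some genes that rose under chow were not called under HFD: Slc6a11 (1.09 and 0.01), Ttyh1 (0.71 and -0.26), Fgfr3 (1.05 and -0.49), Mt2 (1.61 and 0.33), Cbs (0.88 and 0.16) and Pla2g7 (1.25 and 0.43). The call of Cbs under chow remained in 4 of 8 fits with a library left out. In Slc6a11 the HFD P21 libraries, at 125 to 237 units, spanned the range of the HFD P0 libraries, at 139 to 235.

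None of the 3 transcriptional regulators rose. Id4 fell, from 91.6 to 349 units to 51.7, 15.1 and 29.4 under chow (-2.91, SE 0.44, adjusted p = 0.000261) and from 18.1 to 133 to 17.5, 39.6, 29.3 and 38.9 under HFD (-1.12, SE 0.44, adjusted p = 0.0462). With a library left out, the call of Id4 under HFD remained in 1 of 9 fits, the one without HFD P0 replicate 5, with differences of -1.57 to -0.87 and adjusted p up to 0.136. Sox9 was at -0.50 under chow, without passing, and fell under HFD (-1.52, SE 0.22, adjusted p = 8.49e-05). Id3 was at 0.02 under chow and fell under HFD (-0.87, adjusted p = 0.0122). The folate enzyme Aldh1l1, a common pan-astrocyte marker, was at -0.61 under chow, without passing, and fell under HFD (-1.41, SE 0.21, adjusted p = 7.42e-05). Radial glia and tanycyte genes fell over the same time (9 of 13 under chow, 8 of 13 under HFD). Of all genes tested, 17.7% and 26.2% were called lower. The radial glia and tanycyte list had summed levels of 1405 to 2437 units in chow P0 and 290 to 356 in chow P21. That list holds genes which astrocyte precursors also use, and its part in the falls of Id4, Sox9 and Aldh1l1 was not tested.

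**Figure D4:**
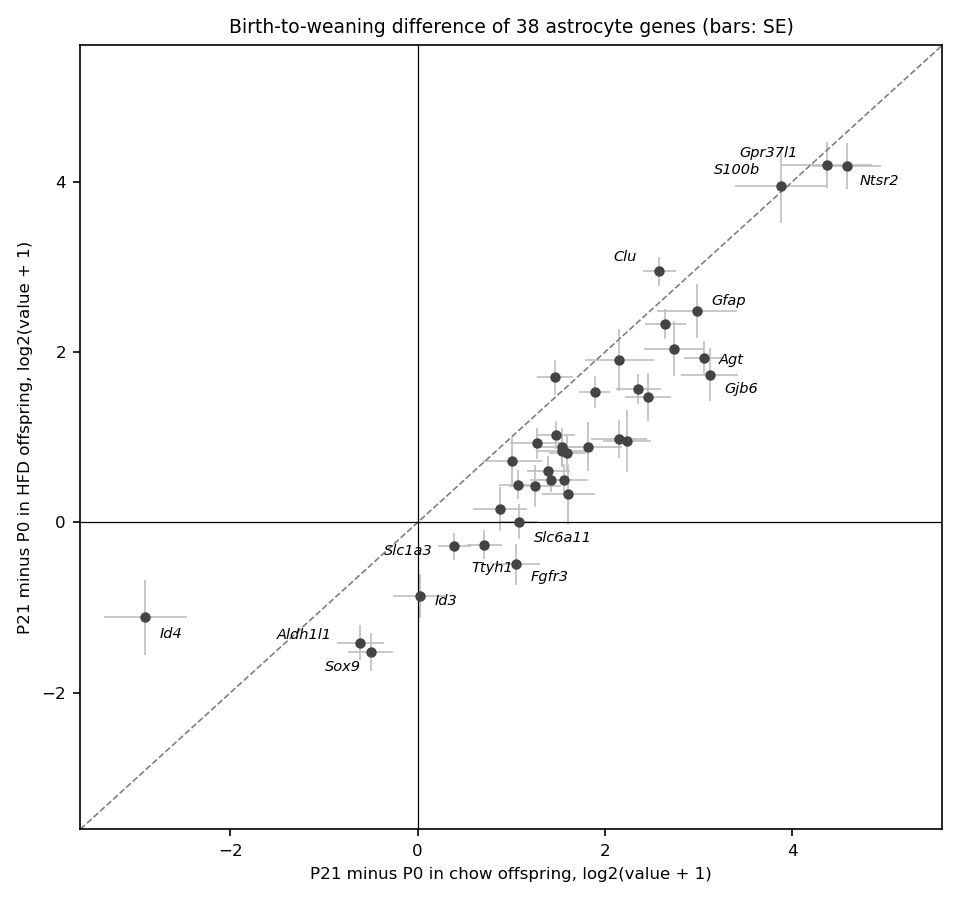
Log2 difference between P21 and P0 (of value + 1) of the 38 astrocyte genes in chow offspring (horizontal) and HFD offspring (vertical), with SE bars and a dashed line of equal change. Most points lie below the line, Ntsr2, Gpr37l1 and S100b lie near it at the top right, and Id4 lies far left.

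Whether the change with age differed between diets was tested directly in 1 fit over all 17 libraries. None of the 38 genes passed this interaction by limma (0.0266% of 15037 genes did), and no other tool was run for it. Of the 38, 21 had an unadjusted p under 0.05, beside 2290 of the 15037 genes. In 34 of the 38 the change was smaller, or more negative, under HFD (52.9% of all genes), with a median of -0.75 beside -0.04 for all genes. Fgfr3 came nearest (-1.54, SE 0.37, adjusted p = 0.0880), then Ttyh1 (-0.97, adjusted p = 0.102) and Agt (-1.13, adjusted p = 0.116). Clu was at 0.36, Mt3 at 0.23, S100b at 0.06 and Id4 at 1.79, each without passing. Without HFD P0 replicate 5, 6 of the 38 passed (Agt, Apoe, Fgfr3, Mt1, Mt2 and Ttyh1), in a fit where the calls over all genes also went from 4 of 15037 to 557 of 15022. Hepacam, outside the 38, passed with all libraries (-1.79, SE 0.27, adjusted p = 0.0106): it rose by 0.80 under chow and fell by 0.99 under HFD.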

How the data were processed

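RNA bound to HA-tagged ribosomes was sequenced as single reads of 50 bases, per the labels' protocols. The submitters' processing notes name FastQC, TopHat2 2.0.13, Picard 1.80, HTSeq 0.6.1, edgeR and the build mm10; the sources used here do not give the strand setting. The authors deposited 1 table of normalized signal for 15355 genes in 17 libraries, with 2 decimals, and 15 further columns that are empty. From the values, each column is whole reads divided by a library size: 99.8% to 100% of non-zero values lie at whole reads within 0.005 units (21.8% to 36.3% at random), which gives 22374063 to 37094435 reads counted per library, 0.0275 to 0.0460 units per read, and a limit of 0.0826 to 0.138 units for 3 reads (counting error only). Steps stood clear of the rounding in 6 libraries, whose reads were recovered for a count test.

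Values were tested with limma 3.58.1 (R 4.3.3) on log2(value + 1) with a variance trend; the pseudocount understates changes of low genes. A gene was tested when its value exceeded 1 unit in as many libraries as the smaller group had, or more. The fits were checked on simulated data. Alternatives were pseudocounts of 0.5 and 2, no filter, rescaling by median ratios, all 17 libraries in 1 fit, the replicate block, each library left out and, added after the data were seen, edgeR 4.0.16 and limma on the libraries with recovered reads. The 38 genes and all lists were chosen with earlier results of these data known. Genes named with values in each library are those past the threshold in a diet comparison, the lowest p at P21 and the largest change with age in each role, those that a left-out library moved across the threshold at P21, and, of the other astrocyte and pathway lists, the 3 lowest p values; lists of other cells are given by sums, medians and defining markers, and a few genes that these rules name are not reported here. The 38 genes each matched 1 GENCODE M21 gene (GRCm38); 11 share exonic bases with another gene, and for Mt2, Slc7a10, Fgfr3, Aldh1l1 and Pla2g7 this is over 10% (73.5%, 17.9%, 13.9%, 13.4% and 11.0%).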

Additional observations from a re-analysis of the deposited data

Results flagged for a closer look

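Among 114 combinations of an astrocyte gene with a group of 4 or 5 libraries, 8 held a library whose gap to the next was large beside the range of its group by Dixon's criterion, where chance alone gives about 1 in 20. HFD P21 replicate 3 was high for Gjb6 (77.03 units, beside 46.0 to 47.5 in the other 3), Sparcl1 (1045.51, beside 592 to 667), F3 (37.28, beside 24.2 to 26.4) and Dio2 (8.21, beside 3.27 to 3.86). HFD P21 replicate 2 was high for Slc4a4 (73.34, beside 54.4 to 57.0). At P0, HFD replicate 5 was low for Ttyh1 (177.91, beside 246 to 271) and high for Clu (216.92, beside 135 to 158), and HFD replicate 4 was high for F3 (18.77, beside 11.9 to 13.4).

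The diet difference of Hepacam, an astrocyte gene outside the 38, differed between ages by the interaction test (-1.79, limma adjusted p = 0.0106). It was 0.43 at P0, without passing (adjusted p = 0.436), and -1.36 at P21. The interaction kept its sign when each of the 17 libraries was left out in turn, and its adjusted p ran from 0.000905 to 0.0506.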

How the results depend on the processing

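At P21 the number of astrocyte genes called lower was 4 and became 1 with all 17 libraries in 1 fit, 2 with no filter on low values, 0 with the replicate block and 0 to 9 when a library was left out. With age under chow the number called lower was 1, and 3 with the replicate block and 1 to 2 when a library was left out. For the interaction it was 0, and 2 (Fgfr3 and Ttyh1) with the replicate block and 0 to 6 when a library was left out. The other counts stayed within 1.5 times of the values reported, and 0 were called at P0 in each fit. Apart from fewer samples where a library was left out, the cause of these shifts was not tested.

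Some differences changed sign, and the values of opposite sign did not pass. With a library left out, the range at P21 was -0.19 to 0.037 for Mt3 and -0.37 to 0.48 for Id4, and at P0 it was -0.13 to 0.11 for Agt, -0.24 to 0.0097 for Apoe, -0.20 to 0.30 for Gjb6 and -0.16 to 0.043 for Ttyh1. With age it was -0.16 to 0.18 for Id3 under chow and -0.13 to 0.17 for Slc6a11 under HFD. On the libraries with recovered reads at P0, edgeR and limma put Agt at 0.62 and 0.58, Apoe at 0.32 and 0.33, Gjb6 at -0.45 and -0.29, and Ttyh1 at 0.18 and 0.17. With age under chow, where chow P21 replicate 3 is their only P21 library, they put Aldh1l1 at 0.096 and 0.093. With all libraries Aldh1l1 was at -0.61, and without chow P21 replicate 3 it passed by limma (-0.93, adjusted p = 0.00873). Median-ratio rescaling put Slc6a11 with age under HFD at -0.0099.

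Same-numbered libraries deviated together unevenly (correlations of -0.21 to 0.55), so the number is not taken to pair them. The replicate block, under which HFD P21 replicate 4 has no partner at P21 and drops out, put Mt3 at 0.037 and Id4 at -0.058 at P21, Id3 at -0.38 with age under chow and Slc6a11 at -0.013 with age under HFD. Over all genes the block called 3 at P21 (25 without it), 104 at P0 (41) and 133 in the interaction (4). Over all genes, the count at P21 was 16 with no filter and 3 to 51 when a library was left out. At P0 it was 10 with all 17 libraries in 1 fit, 3 by edgeR and 24 by limma on the recovered libraries, and 18 to 135 when a library was left out. With age under chow it was 953 by edgeR and 1116 by limma on those libraries (5251 otherwise), and for the interaction 2 to 557 with a library left out. With 3 chow libraries at P21, their number limits the precision.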
